A study of Mus musculus with 22 samples.

Results

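The unstressed mouse heart was described from its 3 control libraries, chosen by the group given in the sample labels, out of 11 paired-end total RNA libraries with gene counts in the series. The other libraries came from 4 case mice under chronic psychological stress and 4 treatment mice under the same stress. The treatment mice also received the cannabinoid receptor agonist JWH133 (10 mg/kg, injected intraperitoneally 2 times per day for 3 weeks). Values of the case and treatment libraries were not used. The control mice were normal males, 6 weeks old at the start, with free food and water and 12 hours of light per day. Strain is not given in the sources used here. No allele, agent or stress applied to them. The question was which genes make up the transcriptome of the normal heart, at what level and in what order. No group was compared with another, so no test was run, and an order of 2 genes held by all 3 libraries could reach no lower two-sided exact p than 0.25.

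The heart is a muscle that contracts without rest, and its cardiomyocytes are packed with myofibrils and mitochondria. Myofibrils slide thin actin filaments past thick myosin filaments when calcium is released from the sarcoplasmic reticulum, and mitochondria supply the ATP, mostly by burning fatty acids. Many of the proteins involved exist as paired forms encoded by separate genes, of which the heart, the skeletal muscles or the fetus use different members. Fibroblasts, endothelial cells, pericytes and macrophages also live in the tissue, and a bulk library mixes the RNA of all of them. Fewer cells of a type and less RNA per cell cannot be told apart in such a library.

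The table held 21898 named genes. The libraries had 31692564 (library a), 29628337 (library b) and 32078770 (library c) counts, and 15529 to 15662 genes had a count in each. Levels are given as FPKM, the count of a gene divided by its length in bases and by the total count of the library, times 1000000000, because counts alone favour long genes. A gene of 1000 bases with 3 counts, the limit that a count of 0 allows, would stand at 0.0935 to 0.101 FPKM, for counting error only. The libraries were alike across genes, with a Spearman correlation of FPKM of 0.991 to 0.992 over the 16464 genes with a count in any of them, as a description in which all points share the same lengths and annotation. Every pair of libraries nevertheless differed beyond sampling noise, with a chi-square per degree of freedom from 7.48 to 14.8.

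The level of most genes was low and a few genes were very high. In all, 5434 genes (24.8%) had no count in the control libraries, and 10575 genes reached 1 FPKM in every library. Only 258 genes had a mean of 100 FPKM or more, yet they held 25.8% (240 genes from 100 to 1000 FPKM) and 14.4% (18 genes at 1000 FPKM or more) of the counts. The median over genes with a count was 2.94 FPKM, and the highest gene stood nearly 4 orders of magnitude above it (3.95 on the log10 scale). By counts, 28 genes made up 25%, 415 genes 50% and 4840 genes 90% of the reads. The 10 genes with the most counts took 19.8% ± 0.542 (SD, n = 3) of each library.

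**Figure D1:**
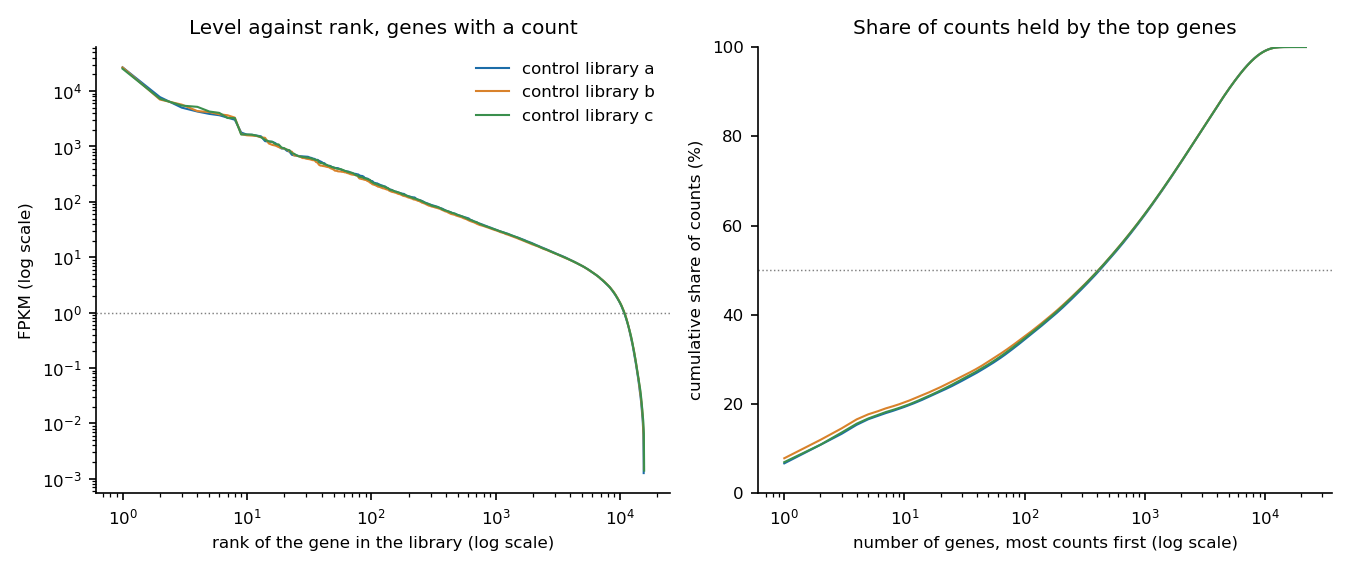
Left, FPKM of each gene with a count against its rank in the library, both on log scales, with a dotted line at 1 FPKM; right, the cumulative share of counts in percent against the number of genes, with a dotted line at 50%. Lines are control libraries a, b and c, which nearly coincide, and each crosses 50% at 411 to 421 genes.

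The promoters of the 3 nuclear genes of highest mean FPKM are shown because these genes stand at the head of the nuclear transcriptome of the control heart. Actc1 encodes cardiac alpha-actin of the thin filament, Mb encodes myoglobin, the oxygen store of the muscle cell, and Myh6 encodes alpha-myosin heavy chain, the motor of the adult mouse ventricle. The sequences come from RefSeq on GRCm38.p6, read 5′ to 3′ on the strand of the gene, from 250 bases before to 50 bases after an annotated start. Capitals mark the letters TATAAA on either strand and the CArG box, the element that serum response factor binds in many muscle genes. All 3 genes lie on the minus strand.
Actc1, chr2:114052826-114053125: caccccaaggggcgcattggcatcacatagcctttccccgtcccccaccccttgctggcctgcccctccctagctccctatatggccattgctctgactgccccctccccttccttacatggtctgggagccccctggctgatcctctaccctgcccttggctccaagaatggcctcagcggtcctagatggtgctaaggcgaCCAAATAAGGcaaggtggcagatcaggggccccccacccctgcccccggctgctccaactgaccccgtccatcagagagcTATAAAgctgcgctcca
Mb, chr15:77022738-77023037: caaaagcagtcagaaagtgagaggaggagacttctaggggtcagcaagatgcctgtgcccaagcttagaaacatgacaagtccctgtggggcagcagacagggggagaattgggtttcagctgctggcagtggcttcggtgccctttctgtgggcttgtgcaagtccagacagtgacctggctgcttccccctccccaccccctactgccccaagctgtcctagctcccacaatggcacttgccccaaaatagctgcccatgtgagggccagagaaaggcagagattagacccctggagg
Myh6, chr14:54966558-54966857: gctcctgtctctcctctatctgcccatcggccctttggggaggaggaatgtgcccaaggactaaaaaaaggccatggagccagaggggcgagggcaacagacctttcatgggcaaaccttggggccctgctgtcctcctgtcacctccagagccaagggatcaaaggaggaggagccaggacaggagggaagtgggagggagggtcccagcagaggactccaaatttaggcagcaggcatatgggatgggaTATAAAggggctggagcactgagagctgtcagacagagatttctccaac
The Actc1 window held 1 CArG box before and 1 TATAAA after the annotated start, the Myh6 window held 1 TATAAA after it, and the Mb window held neither. Of the 16854 genes with a promoter in the table, 258 (1.53%) held a CArG box, and 5 of the 82 promoters found for the 100 nuclear genes of highest FPKM did (6.10%). The letters TATAAA were in 13.2% of all promoters and in 9 of those 82 (11.0%). The letters GGGCGG on either strand, the core bound by Sp1 in many housekeeping promoters, were in 67.2% of the promoters of genes with a mean of 1 FPKM or more, in 28.2% of those of lower genes and in 43.9% of the 82. A match is a description of letters and not a site of binding.

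The first rank belonged to a mitochondrial gene by a wide margin. mt-Co1, a core subunit of cytochrome c oxidase encoded by the mitochondrial genome, stood at 26858, 26695 and 25327 FPKM in libraries a, b and c. Its mean of 26293 ± 841 (SD, n = 3) was 3.57 times that of the next gene, Actc1, and the values of both genes did not overlap. mt-Co1 alone took 4.06% of the counts.

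Actc1 (chr2:114047282-114053548, GRCm38) stood at 7778, 7028 and 7264 FPKM and was the highest nuclear gene in each library. Mb stood at 5015, 4352 and 5189 FPKM and Myh6 (chr14:54941921-54966927) at 3663, 3818 and 4037. Atp2a2, the SERCA2 pump that returns calcium to the sarcoplasmic reticulum, stood at 3316, 3314 and 3261 FPKM. Its coefficient of variation (CV) of 0.938% was the smallest among the 25 highest genes, whose largest was 14.9%. For Mb, 31.9% of the exon bases are also covered by the predicted gene Gm49540, so its level is uncertain.

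The 25 highest genes comprised 7 genes of the mitochondrial genome, 7 genes of the thick or thin filament and 3 nuclear genes of the respiratory chain or ATP synthase. Below Atp2a2 the means stepped down 1.99-fold to Myl3, the ventricular essential light chain (1658 ± 121 FPKM). This step depends on the length used, since with the length of the principal transcript, an alternative chosen after seeing the data, Atp2a2 stood at 4469 and Myl3 at 3616 FPKM. Fabp3, the heart fatty acid binding protein (1618 ± 23.3), phospholamban (Pln, 1599 ± 58.5), the inhibitor of SERCA2, and Ckmt2, the mitochondrial creatine kinase of striated muscle (1578 ± 103), followed within the spread of the libraries. Myl2, the ventricular regulatory light chain, reached 1477 ± 44.3 FPKM, and Tnnc1, troponin C of cardiac muscle, 1173 ± 92.5. Atp5a1 and Atp5b, the alpha and the catalytic beta subunit of ATP synthase, reached 1199 ± 59.2 and 1093 ± 53.4. With the principal transcript length, Myl2 stood at 3239, Atp5b at 2416 and Tnni3, cardiac troponin I, at 1902 FPKM. Slc25a4, the adenine nucleotide carrier of muscle, reached 1008 ± 75.7.

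Fhl2, a LIM domain protein of the sarcomere (906 ± 25.7 FPKM), Mybpc3, cardiac myosin binding protein C (894 ± 78.7), Tnni3, cardiac troponin I (841 ± 28.9), Tcap, the titin cap (712 ± 24.2), and Cox6b1 of cytochrome c oxidase (671 ± 9.19) were the last nuclear genes of the 25. The gene just below, Cox4i1, had 669 FPKM against 671 for Cox6b1, so the end of the list is not sharp. Of the 24 neighbouring places, 11 were in the same order in all 3 libraries and 13 were not. The 25 genes together held 15.5% of the counts and 31.8% of the summed TPM, which is FPKM rescaled to a fixed sum per library.

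**Figure D2:**
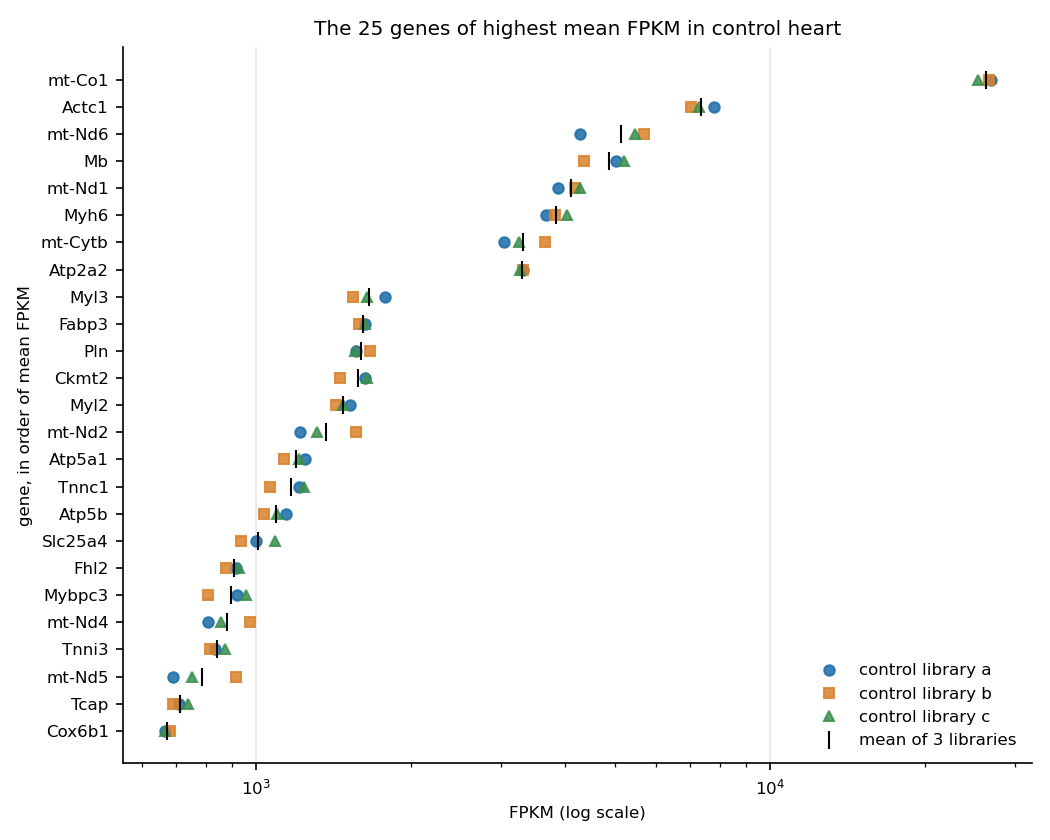
FPKM on a log scale (x) of the 25 genes of highest mean FPKM (y, in that order); points are control libraries a, b and c and the black bar is their mean. mt-Co1 sits at 25327 to 26858, apart from all others, whereas neighbours such as Fabp3, Pln and Ckmt2 overlap.

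The order changed when genes were ranked by counts. Ttn, which encodes titin, the giant spring of the sarcomere (chr2:76703980-76982547), had 2131811, 2332148 and 2245201 counts, the most of any gene and 7.20% ± 0.598 (SD, n = 3) of each library. With 117334 bases of exon it stood only at place 32 by FPKM (614 ± 51.0). Ryr2, the calcium release channel of the cardiac sarcoplasmic reticulum, held place 7 by counts and place 100 by FPKM (229 ± 9.40), and Lpl, lipoprotein lipase, place 9 and place 46 (430 ± 10.9). With the principal transcript length Ryr2 stood at 392 and Lpl at 1096 FPKM. The other 7 of the 10 genes with the most counts were also among the 25 highest by FPKM. Ttn made up 49.8% of the counts from chromosome 2 and Myh6 47.9% of those from chromosome 14.

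Genes of the mitochondrial genome took 5.51%, 5.74% and 5.40% of the counts in libraries a, b and c (mean 5.55% ± 0.173) and 17.4% of the summed TPM. The 13 protein-coding genes of this genome are made from long shared transcripts, but their measured levels spanned from 26293 FPKM for mt-Co1 to 0.157 for mt-Atp8. mt-Nd6 (5141 ± 759 FPKM), mt-Nd1 (4102 ± 210) and mt-Cytb (3313 ± 313), which encode subunits of complexes I and III, came next. mt-Nd6 was the only mitochondrial gene on the other strand, and no source used here states counting by strand, so reads of the opposite strand cannot be told apart from its own.

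Several mitochondrial genes share sequence with other genes of the annotation. For each gene the share of its 62-base words that also occur in transcripts of another gene was taken from GENCODE M21. That share was 0% for mt-Nd6, mt-Nd1 and mt-Cytb, 3.86% for mt-Nd5 (785 FPKM), 6.96% for mt-Nd2 (1369 FPKM), 45.6% for mt-Co1 and 61.9% for mt-Nd4 (880 ± 86.3 FPKM). It was over 90% for 5 mitochondrial genes, which were the lowest apart from mt-Atp8. Among these, mt-Co3 stood at 661, 397 and 377 FPKM and mt-Co2 at 65.5, 137 and 65.1, although both encode subunits of the same complex as mt-Co1. mt-Atp6 of ATP synthase stood at 18.0 ± 7.18, mt-Nd4l at 3.96 ± 0.205 and mt-Nd3 at 2.30 ± 0.746. mt-Atp8 had 0, 1 and 2 counts with 0% shared, and 21.1% of it overlaps mt-Atp6. At 204 bases it was the shortest of the mitochondrial genes, followed by mt-Nd4l (297) and mt-Nd3 (348). The parts of shared sequence and of gene length in these levels were not tested. The levels of these 6 genes and of mt-Co1 and mt-Nd4 are uncertain.

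The thick filament list had 12 genes in the table and a median of 184 FPKM, against 0.953 over all 21898 genes. Of all genes, 10856 had a mean of 1 FPKM or more. All 12 had a mean above 1 FPKM, and 7 were above 100. Myh6, Myl3 and Myl2 led, and Mybpc3 and Ttn followed. Myom1, the M-band protein myomesin, stood at 256 ± 8.98 FPKM. The lowest member was Mybphl, a myosin binding protein found mainly in the atria, at 0.668, 1.14 and 1.91 FPKM.

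Of the 14 thin filament genes, 13 exceeded 1 FPKM and the median was 155. Tpm1, alpha-tropomyosin, stood at 643 ± 13.7 FPKM and Tnnt2, cardiac troponin T, at 374 ± 15.1. The deposited length of Tnnt2 joins all exons of its transcripts (7752 bases against 1200 in the principal transcript), which lowers its FPKM relative to genes with a single transcript. Acta1, the skeletal alpha-actin, was at 357, 354 and 503 FPKM, highest in library c. Tnni1, the slow skeletal and fetal troponin I, was the lowest member with 0, 8 and 6 counts.

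All 19 genes of the Z-disc and intercalated disc list exceeded 1 FPKM (median 120). Tcap, Actn2, the alpha-actinin that anchors thin filaments (632 ± 15.3), and Des, the intermediate filament desmin (444 ± 23.0), led. Ctnna3, alpha-T-catenin of the intercalated disc, was lowest at 15.6 ± 0.666. Among the 138 genes that the deposited annotation places in the Z disc (0.630% of the table), 13 were among the 100 highest genes. The annotated set took 14.5% of the counts, of which Ttn is the largest part.

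The calcium store list (16 genes) had a median of 86.3 FPKM. Atp2a2 and Pln led, and S100a1, a calcium sensor that binds both SERCA2 and the release channel, stood at 573, 452 and 568 FPKM. Casq2, the cardiac calsequestrin that buffers calcium in the store, was at 344 ± 2.91 and Hrc, a second buffer, at 215 ± 2.50. Fkbp1b, calstabin-2, which binds the release channel, was the lowest member at 0.494, 0.893 and 0.702 FPKM. In Pln, 64.7% of the exon bases are covered by the predicted gene Gm47644, so its level is uncertain.

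Ion channels and pumps were lower, with a median of 16.2 FPKM over 32 genes, 29 of them above 1. Atp1b1, the beta subunit of the sodium pump, stood at 110 ± 7.43 FPKM. Cacna1c, the pore of the L-type calcium channel, stood at 25.6 ± 0.987. Kcnip2, the partner of the transient outward channel, reached 43.1 ± 4.43, and its pore subunits Kcnd2 and Kcnd3 10.0 ± 0.0341 and 4.24 ± 0.477. Cacna1d, an L-type channel used by pacemaker cells, was lowest at 0.516 ± 0.0816.

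Measured levels of the respiratory chain genes were uneven between and within complexes. The list medians were 41.9 FPKM for the 37 nuclear genes of complex I, 216 for the 4 of complex II, 215 for the 9 of complex III, 190 for the 15 of complex IV and 52.7 for the 16 of ATP synthase. With the principal transcript length these medians were 75.0, 330, 252, 275 and 200 FPKM in the same order, so the gap between ATP synthase and complexes II to IV depends on the length used. In complex I, Ndufa8 (282 ± 30.9) and Ndufv2 (203 ± 3.38) were among the highest, and Ndufb2 was lowest at 0.908, 1.01 and 1.01 FPKM. In complex II, which also serves the citric acid cycle, Sdha was highest (337 ± 3.59) and Sdhc lowest (86.7 ± 5.58). In complex III, Uqcrc2 led (408 ± 2.96), and Uqcr11 was lowest (85.7 ± 10.9). In complex IV, Cox6b1, Cox4i1 and Cox7c (354 ± 21.8) led, and Cox6b2, a testis form, was lowest with 1.05, 0.0914 and 0.394 FPKM. In ATP synthase, Atp5h followed Atp5a1 and Atp5b at 340 ± 15.8, and Atp5k was lowest at 5.24 ± 0.857. Sequence shared with or overlapped by another gene exceeded 20% in 2 genes of complex I and 2 of ATP synthase. It did so in 1 gene each of complexes III and IV and in none of complex II. The part of shared or overlapping sequence in the lowest levels was not tested.

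Fuel pathways also had medians far above that of all genes. The 28 genes of fatty acid uptake and oxidation had a median of 101 FPKM, and 14 of them exceeded 100. After Fabp3 came Acadl (575 ± 21.7) and Acadvl (454 ± 18.8), the long-chain and very long-chain acyl-CoA dehydrogenases, and then Lpl and the fatty acid transporter Cd36 (423 ± 23.9). Hadha and Hadhb, the alpha and beta subunits of the trifunctional protein that carries out the last steps of the spiral, stood at 142 ± 3.48 and 153 ± 0.529. The lowest members were Etfb (1.54 ± 0.213) and Cpt1b (0.395 ± 0.0981), and both overlap predicted genes, over 58.2% and 81.4% of their exon bases.

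The 17 genes of the citric acid cycle all exceeded 1 FPKM, 14 exceeded 100, and their median was 150. Ogdh of the oxoglutarate dehydrogenase complex (563 ± 36.5) and Idh2, the NADP-linked mitochondrial isocitrate dehydrogenase (492 ± 47.3), led. Suclg2, the GTP-forming subunit of succinyl-CoA ligase, was lowest at 23.9 ± 1.09, against 150 ± 4.55 for Sucla2, its ATP-forming counterpart.

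For glucose uptake and glycolysis (27 genes), the median was 110 FPKM. Ldhb (630 ± 25.9), Aldoa (628 ± 45.9), the muscle aldolase, and Eno3 (609 ± 18.9), the muscle enolase, led, and Aldoc, the brain aldolase, was lowest at 0.0677, 0 and 0.0287 FPKM. Oxct1, the enzyme that lets a tissue burn ketone bodies, reached 504 ± 5.51, while the median of the 10 genes for ketone and branched-chain use was 39.2. Bcat2, the mitochondrial branched-chain aminotransferase, was the lowest of them at 19.2 ± 1.69.

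By the deposited annotation, 1748 genes (7.98% of the table) belong to the mitochondrion. They took 25.4% of the counts and 40.5% of the summed TPM and made up 52 of the 100 highest genes. The 263 genes of the extracellular matrix (1.20% of the table) took 1.59% of the counts, with none of the 100 highest. The 6031 genes of the nucleus (27.5% of the table) took 36.5%. They made up 23 of the 100 highest, which is not above their share of the table. Of the 47 listed cytosolic large-subunit ribosomal protein genes, the median was 42.4 FPKM. Rplp0 (293 ± 17.7), Rplp1 (249 ± 12.4) and Rpl41 (166 ± 6.52) led, and Rpl24 was lowest (0.334 ± 0.103). Sequence shared with or overlapped by another gene exceeded 20% for 26 of these 47, so their levels are uncertain.

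Most paired forms were far apart. A ratio of FPKM was examined for 37 pairs, of which the first, generally cardiac or ventricular, form was higher in all 3 libraries in 33, the second in 3, and 1 had no common order. Means differed more than 10-fold in the direction of the first form in 20 pairs and more than 100-fold in 10. One of these, Cnr2 over Cnr1, rests on 0, 0 and 1 counts of the second form, so no fold can be read from it, and 9 pairs remained over 100-fold without it. Ratios below are log2 of FPKM, first over second, as mean ± SD of the libraries.

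In the thick filament, Myh6 exceeded Myh7, the slow beta-myosin of the fetal mouse ventricle and of the adult human heart, by log2 11.09, 10.14 and 10.76. Myh7 stood at 1.68, 3.39 and 2.33 FPKM, that is 0.0642% of the sum of both means, and was highest in library b. Of their 62-base words, 16.4% and 16.5% also occur in another gene, so reads could have been split between genes. Myl2 exceeded its atrial form Myl7 by 6.52 ± 0.86 and Myl3 exceeded its atrial form Myl4 by 8.28 ± 0.83. In the thin filament, Tnni3 exceeded Tnni1 by 13.41 in library b, by 14.04 in library c and by at least 14.95 in library a, where 3 counts were set for the count of 0. Tnnt2 exceeded Tnnt1 of slow skeletal muscle by 7.74 ± 0.20, and Actc1 exceeded Acta1 by only 4.20 ± 0.31.

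In the calcium store the cardiac forms were also the higher ones. Atp2a2 exceeded the fast skeletal pump Atp2a1 by 13.68 ± 0.70, Ryr2 exceeded the skeletal channel Ryr1 by 12.83 ± 0.60, and Pln exceeded sarcolipin (Sln), the inhibitor used by the atria and by skeletal muscle, by 10.64 ± 0.57. Sln had 33, 32 and 65 counts. Casq2 exceeded the skeletal Casq1 by 4.82 ± 0.34, and Casq1 reached 9.83, 15.9 and 11.6 FPKM.

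Most pairs of metabolic enzymes were closer together. Cox6a2 exceeded Cox6a1 by 3.34 ± 0.02, Cox8b exceeded Cox8a by 0.89 ± 0.13 and Cox7a1 exceeded Cox7a2 by 0.37 ± 0.06, the first being the heart and muscle form in each. Fabp3 exceeded Fabp4 of adipocytes and capillary endothelium by 4.74 ± 0.0067. Ckm, the muscle creatine kinase, exceeded the brain form Ckb by 5.54 ± 0.07. The insulin-responsive glucose transporter Slc2a4 exceeded Slc2a1 by 4.15 ± 0.04, Hk2 exceeded Hk1 by 1.95 ± 0.08, Ldhb exceeded Ldha by 2.10 ± 0.06 and Slc25a4 exceeded Slc25a5 by 2.71 ± 0.08. Pdk4, which restrains pyruvate oxidation in fasting, exceeded Pdk2 by 0.63, 1.35 and 1.05, lowest in library a. Several of these ratios depend on the length used. With the principal transcript length the ratio of Fabp3 to Fabp4 fell to 2.42, that of Hk2 to Hk1 to 0.92, that of Ldhb to Ldha to 1.47 and that of Ckm to Ckb to 4.65. Outside metabolism, the ratio of Tnnt2 to Tnnt1 was then 9.33, that of Myl2 to Myl7 7.66 and that of Myl3 to Myl4 7.11.

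The second form was higher for Cpt1, Cacna1 and Rpl3. Cpt1b, the muscle form of the enzyme that admits fatty acids to mitochondria, stood at 0.337, 0.340 and 0.508 FPKM and the liver form Cpt1a at 12.7, 13.0 and 12.7, a log2 ratio of −5.04 ± 0.35. Because 77.9% of the 62-base words of Cpt1b also occur in the overlapping gene Gm44502, its low level is uncertain, and the part of this overlap was not tested. Cacna1h was below Cacna1g, both T-type calcium channels, by log2 −0.98 ± 0.06. Rpl3, the general ribosomal protein, was below Rpl3l, its form of striated muscle, by −1.81 ± 0.14, with Rpl3l at 101 ± 5.57 FPKM, and by −0.83 with the principal transcript length. Of the 62-base words of Rpl3, 33.5% also occur in another gene, against 0% for Rpl3l. The level of Rpl3 is therefore uncertain, and the part of shared sequence in this ratio was not tested.

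Energy transfer carries phosphate from mitochondria to the myofibrils and holds oxygen ready. Its list of 13 genes had a median of 205 FPKM with 8 genes above 100, led by Mb, Ckmt2 and Slc25a4. Ckmt1, the mitochondrial creatine kinase of other tissues, was lowest with 2, 4 and 8 counts.

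The natriuretic peptides, hormones by which the heart lowers blood volume and pressure, had no common order. Nppa, mainly of the atria, stood at 52.9, 55.3 and 94.4 FPKM and Nppb, the B-type peptide, at 75.5, 59.2 and 64.8. The ratio was below 0 on the log2 scale in libraries a and b (−0.51 and −0.10) and above 0 in library c (0.54). For Nppa, 61.5% of the exon bases overlap the predicted gene Gm13054. Corin, the protease that activates the A-type peptide, stood at 60.8 ± 5.87 FPKM, and Nppc was lowest in this list of 16 genes with 0.0307 ± 0.0300. The median of the list was 9.29 FPKM.

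**Figure D3:**
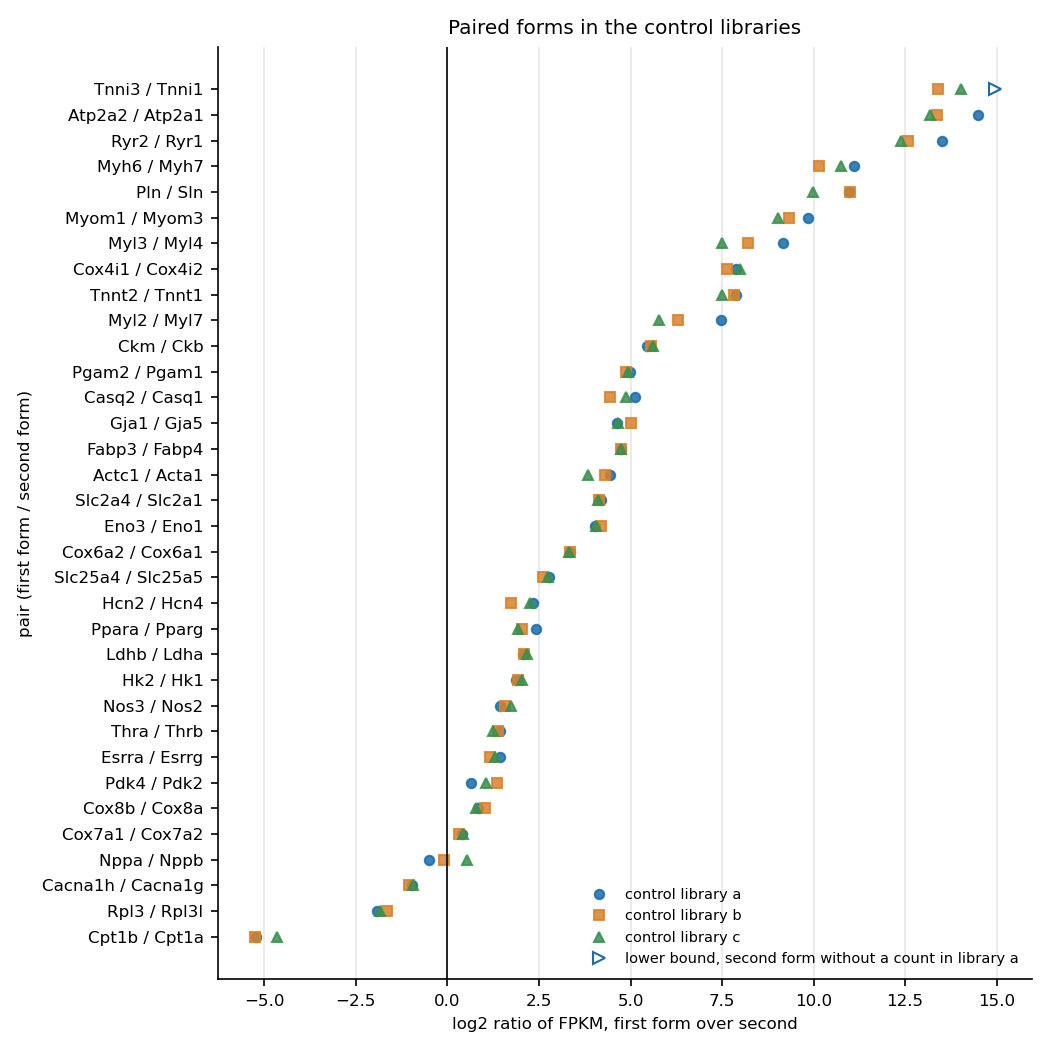
The log2 ratio of FPKM of the first over the second form (x) for all pairs except the cannabinoid receptors and those not reported here (y, in order of the ratio of means); points are control libraries a, b and c, and the open arrow is a lower bound at 3 counts for Tnni1 in library a. Only Nppa / Nppb has points on both sides of 0, and Cacna1h / Cacna1g, Rpl3 / Rpl3l and Cpt1b / Cpt1a lie below 0 in every library.

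Genes for regulation stood far below those for structure and fuel. Of the 17 autonomic receptor and signalling genes, 10 exceeded 1 FPKM (median 2.92), against 10856 of all 21898 genes (median 0.953). The effectors Adcy6 (48.0 ± 1.09), a cardiac adenylyl cyclase, and the G protein subunits Gnas (47.8 ± 2.98) and Gnai2 (45.2 ± 3.77) led. Among the receptors, Chrm2, the muscarinic receptor of the vagus, was highest at 34.4, 37.3 and 35.2 FPKM, then Adra1b at 11.1 ± 0.326. Adrb1, the main beta receptor of the heart, stood at 7.38 ± 0.747. Chrm1 had no count.

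Of the 29 cardiac transcription factor genes, 24 exceeded 1 FPKM, none exceeded 100 and the median was 5.40. Hopx, a homeodomain protein without DNA binding (62.4 ± 3.15), Mef2d (40.3 ± 1.41) and Tead1 (30.4 ± 0.233) led. Gata4 stood at 28.2 ± 0.593, Tbx20 at 18.6 ± 1.04, Nkx2-5 at 16 ± 2.80 and Tbx5 at 4.75 ± 0.427. Hand1, which acts in the fetal left ventricle, was the only gene of the list with no count.

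All 17 metabolic transcription factor genes exceeded 1 FPKM (median 9.61). Ppargc1a, the coactivator of mitochondrial biogenesis (27.7 ± 3.65), Klf15 (26.1 ± 2.36) and the glucocorticoid receptor Nr3c1 (24.6 ± 1.22) led. Ppara, the receptor that drives fatty acid oxidation genes, exceeded Pparg by log2 2.12 ± 0.26, Esrra exceeded Esrrg by 1.30 ± 0.14, and the thyroid hormone receptor Thra exceeded Thrb by 1.36 ± 0.09.

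The target of JWH133 was low in the control heart. Cnr2, the CB2 cannabinoid receptor, had 22, 44 and 31 counts, or 0.174, 0.373 and 0.243 FPKM, place 12680 in the table. Cnr1, the CB1 receptor, had 0, 0 and 1 counts, and Gpr55, another receptor for cannabinoid ligands, had none. Of the 10 genes of the cannabinoid list, 5 exceeded 1 FPKM, near the share over all genes (10856 of 21898). Mgll, which degrades the ligand 2-arachidonoylglycerol, was highest at 32.2 ± 1.11, followed by Abhd6 (3.89 ± 0.279) and Daglb (2.54 ± 0.219), which degrade and make the same ligand. Faah, which degrades anandamide, stood at 0.0330 ± 0.0117.

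Medians of growth and acute response genes were far below those of structure and fuel genes but above the 0.953 FPKM of all genes. Over all 21898 genes, 10856 had a mean of 1 FPKM or more. Of the 12 proliferation genes, 8 exceeded 1 FPKM with a median of 2.30, led by Pcna (12.3 ± 0.321), Mki67 (3.97 ± 0.0809) and Mcm3 (3.73 ± 0.162), and Ccnb1 was lowest (0.564 ± 0.0151). The 15 immediate early genes had a median of 2.97 FPKM. Jund (36.0 ± 7.68), Jun (22.9 ± 2.65) and Ier2 (11.4 ± 1.83) led, although 52.6% of the exon bases of Jund overlap another gene. Fos was at 1.56, 1.05 and 1.55, and Fosl1 was lowest (0.0214 ± 0.0186).

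Markers of the cell types matched the labelled tissue. All 9 cardiomyocyte markers were detected, from Nkx2-5 to Actc1, with a median of 841 FPKM. The 5 markers of lung epithelium and the 4 of thymus had no count in any library, and Alb of liver had none. The summed level of the liver list was 0.0266 to 0.235 FPKM. The 4 Y-linked genes listed, such as Eif2s3y (17.5 ± 1.62) and Ddx3y (16.5 ± 1.42), were present in every library, and the mice were male.

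Markers of cells other than cardiomyocytes were present in every library. The fibroblast list (9 genes) had a median of 35.0 FPKM and summed to 655, 660 and 758, highest in library c. Gsn, the actin-severing protein gelsolin, made up most of it at 372, 349 and 438 FPKM, and other cell types also make it. Dcn, the proteoglycan decorin (78.7 ± 2.81), and Col3a1 (76.7 ± 4.72) followed, and Tcf21, a transcription factor of cardiac fibroblasts, was lowest (1.76 ± 0.369). The endothelial list (10 genes) had a median of 30.4 and summed to 327, 313 and 317, led by Cdh5, VE-cadherin (61.7 ± 4.45). The pericyte list (6 genes) summed to 370, 364 and 353, led by Rgs5 (194 ± 5.46), and the macrophage list (10 genes) to 324, 289 and 329, led by lysozyme Lyz2 (136 ± 11.2) and the complement genes C1qb (65.7 ± 6.48) and C1qa (42.3 ± 2.07).

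Smooth muscle markers (6 genes) summed to 141, 180 and 160, highest in library b, and Acta2, smooth muscle actin, stood at 84.8, 122 and 99.6 FPKM. Markers of other white blood cells were near 0. Among 7 neutrophil markers 4 had no count, and the B cell list and the T and NK cell list each summed to no more than 1.12 and 0.813 FPKM. Haemoglobin was present, with Hbb-bs at 193, 174 and 205 FPKM, although 52.4% of its 62-base words are shared with Hbb-bt. Pf4 of platelets stood at 12.7 ± 2.14.

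Most markers of neighbouring tissues were near 0, with some exceptions whose cell of origin a bulk library cannot give. In the skeletal muscle fibre list (11 genes), Ckm and Mylk4, a myosin light chain kinase (56.0 ± 1.50), were high, but the fast myosins Myh1 and Myh2 had at most 3 counts in any library, Myh4 had none, and the other members stood at 0.493 FPKM (Tnnt3) or less. In the brown adipocyte list, Cidea, a lipid droplet protein, stood at 18.8, 15.6 and 17.6 FPKM while Ucp1, the heat-producing carrier that defines brown fat, had 0, 2 and 0 counts. Adipoq, adiponectin of adipocytes, stood at 0.246 ± 0.0851. In the autonomic neuron list, Dbh, the enzyme that makes noradrenaline, was at 1.56 ± 0.0789, and Th and Chat had no count.

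The remaining marker lists covered minor cell types and blood. The 8 pacemaker and conduction markers summed to 13.1, 13.4 and 13.4 FPKM, led by Hcn4, the pacemaker channel, with Isl1 lowest. The endocardial list (3 genes) summed to 12.9, 13.7 and 13.4, led by Npr3. The lymphatic endothelial list (5 genes) summed to 33.1, 33.7 and 33.9, led by Prox1, the transcription factor that sets lymphatic identity. Prox1 stood at 15.3 FPKM against a list median of 4.97, and which cells made it was not tested. Mast cell markers (5 genes) summed to 5.12, 5.19 and 6.47 and Schwann cell markers (7 genes) to 4.44, 5.54 and 5.69. The erythroid list (7 genes) summed to 253, 222 and 265, nearly all haemoglobin, and the platelet list (6 genes) to 15.2, 12.2 and 15.3. The epicardial and mesothelial list (6 genes) summed to 9.15, 5.99 and 8.60, lowest in library b, and the adipocyte list (6 genes) to 3.43, 2.88 and 2.65.

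The matrix list had 23 genes, all above 1 FPKM, with a median of 32.2. Sparc, a collagen-binding glycoprotein, stood at 197, 200 and 198 FPKM, and the basement membrane chains Col4a1 (139 ± 3.26) and Col4a2 (118 ± 1.56) exceeded the fibrillar chains Col3a1 and Col1a1 (44.3 ± 3.60). Col8a1 of blood vessel walls was lowest at 10.4 ± 0.764.

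**Figure D4:**
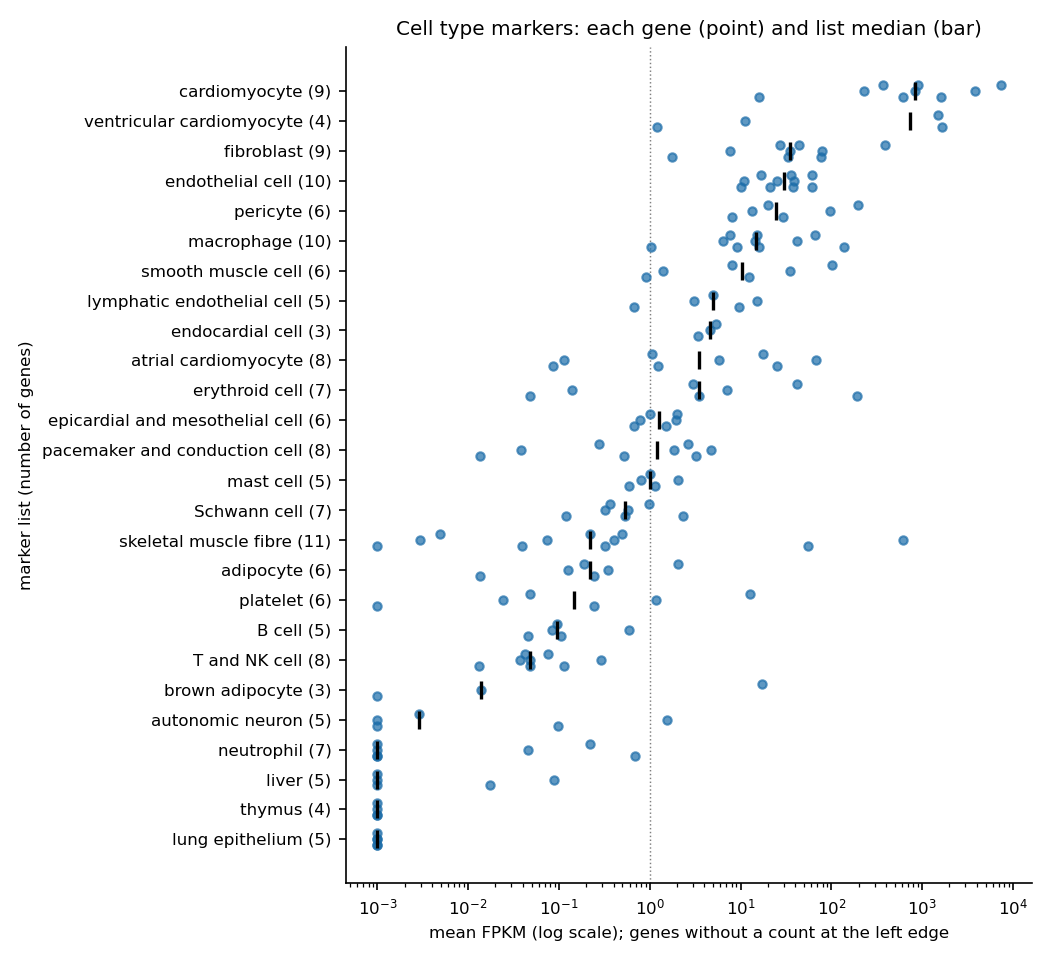
Mean FPKM of the 3 control libraries on a log scale (x) for each gene of the marker lists (y, ordered by median, number of genes in brackets); bars are list medians, the dotted line is 1 FPKM, and genes without a count sit at the left edge. Cardiomyocyte markers have a median of 841, whereas the lung epithelium, thymus, liver and neutrophil medians are at 0.

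Most genes of the sensory and barrier families examined had no count, against 24.8% of all genes. Of 1139 olfactory receptor genes, 1078 (94.6%) had no count, as did 333 of 351 vomeronasal receptors, 31 of 38 taste receptors, 92 of 110 keratins and keratin-associated proteins and 65 of 70 defensins. Against this, 16 of 400 zinc finger protein genes named Zfp had none, and 265 of them exceeded 1 FPKM. Among the olfactory receptors only Olfr1033 (2.14, 3.45 and 3.55 FPKM) and Olfr558 (2.40, 2.48 and 2.64 FPKM) exceeded 1 FPKM on average, and they were named for that reason after their values were seen.

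Control mice differed little from each other for most genes. The spread beyond counting error is given as the biological CV, the SD between libraries as a share of the mean once the Poisson variance is taken away, for 11148 genes with a mean of 100 counts or more. Its median was 5.57% and its 90th percentile was 14.2%. For 17.0% of the genes the variance between libraries did not exceed the Poisson variance, so no spread could be estimated. With 3 libraries this does not show that their spread was absent. The highest library was over 1.5 times the lowest for 411 genes (3.69%) and over 2 times for 38. With library b left out, the median CV fell to 2.82%. In library b the 2233 shortest genes (up to 2784 bases) had a median of −0.06 and the 2230 longest (from 8153 bases) of 0.04 on the log2 scale, relative to the mean of the libraries, and in libraries a and c the same medians were 0.04 and −0.02, and 0.02 and −0.02. Their part in the spread was not tested.

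Of the 10 genes that varied most between the mice, Myl4 and Myl7 are markers of the atria. Cyp26b1, which degrades retinoic acid, stood at 2.0, 2.91 and 9.93 FPKM with a biological CV of 87.6%, the largest of all, and library c was far above the others. Myl4 stood at 3.14, 5.25 and 9.09 FPKM (CV 51.7%) and Myl7 at 8.61, 18.1 and 26.6 (CV 50.4%), both highest in library c and lowest in library a. The whole list of 8 atrial markers summed to 89.5, 107 and 159 FPKM, and the 4 ventricular markers to 3319, 2988 and 3135. The part of the share of atrial tissue in these values was not tested. Bcl3, a regulator of NF-kappaB, stood at 2.31, 1.08 and 0.831 FPKM (CV 55.5%).

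Cilp2, a cartilage matrix protein (0.402, 1.19 and 1.34 FPKM), Inhba, the activin A subunit (0.370, 1.18 and 0.922), and Chad, chondroadherin of cartilage (1.01, 2.75 and 2.21), were each lowest in library a. Wdfy1, an endosomal protein, was at 1.98, 2.28 and 4.59 FPKM. Pomgnt2, which extends the glycans of dystroglycan, was at 6.64, 2.87 and 3.31, and mt-Co2 at 65.5, 137 and 65.1. At the other end, among genes with a mean of 1000 counts or more, Celf1, an RNA-binding protein that controls splicing, was the steadiest at 22.7, 22.7 and 22.8 FPKM, the highest library being 1.0023 times the lowest. Med13l (6.77 ± 0.0106), a subunit of Mediator, Tbc1d16 (21 ± 0.0336), Ist1 (10.4 ± 0.0180) and Clip1 (30.1 ± 0.0506) followed, at ratios up to 1.0034.

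**Figure D5:**
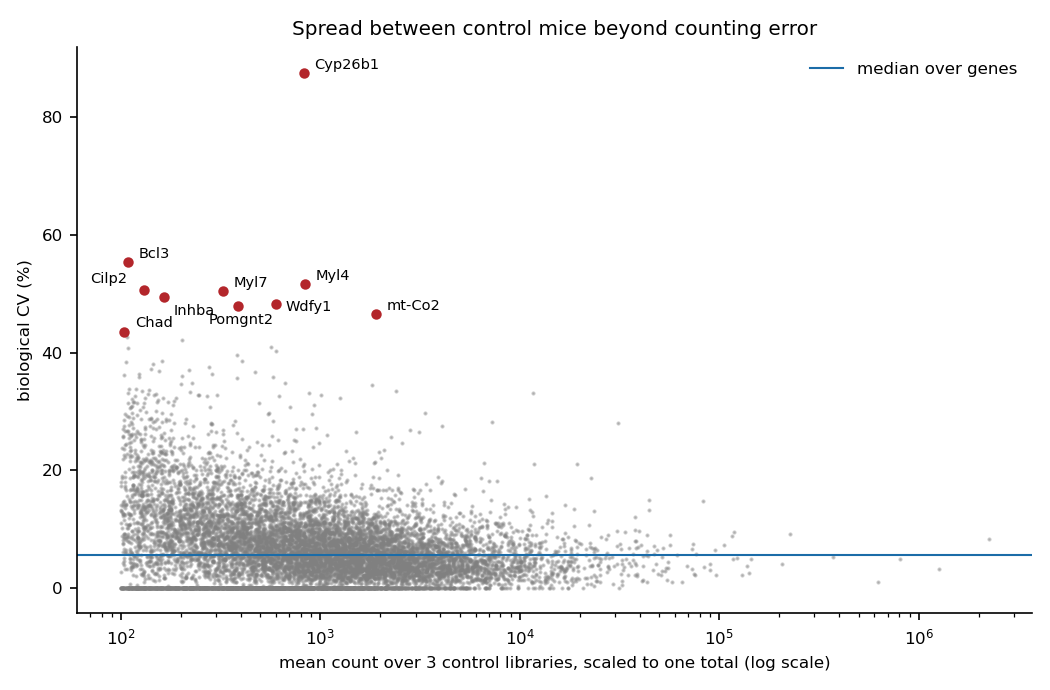
Biological CV in percent (y) against the mean count over the 3 control libraries on a log scale (x) for 11148 genes; grey points are genes, red points the 10 genes of largest CV, and the blue line is the median of 5.57%. Cyp26b1 stands apart at 87.6%, and points on the axis at 0 are genes whose variance did not exceed the Poisson variance.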

How the data were processed

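The authors deposited raw read counts per gene, with 1 length per gene, for paired-end libraries of fragmented total RNA, and the counts of the 3 control libraries were used here. The processing notes name cutadapt, HISAT2, TopHat2 and mm10. No source used here names the counting program, the annotation or a strand setting. FPKM was computed as the count times 1000000000 over the length and the library total, and 11 deposited columns of FPKM were not used. Letters a to c name the count columns of the control group, which carry no replicate number. That these columns are the control group follows from their number, since only that group has 3 samples, and from a supplementary sheet of the study that names the other column groups. The deposited length equalled the merged exon length of GENCODE M21 for 21335 of the 21845 genes found there by identifier, and that annotation (GRCm38) gave the coordinates, because only 562 genes had the same start and end in both. A listed symbol that stood on more than 1 line was not matched, except Aldoa, where the longer gene was taken.

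Genes were named mainly by fixed rules: the 25 of highest FPKM, the 10 of most counts, both members of each pair, the 3 highest and the lowest of each list and members without a count, the cell type markers, the 10 of largest biological CV and the 5 of smallest ratio of highest to lowest library. Other list members were picked outside these rules, such as Hrc, Cacna1c, Kcnip2, Kcnd2, Kcnd3, Hadha, Hadhb, Sucla2, Gata4, Tbx20, Tbx5, Corin and Faah. Members, lists and rules were chosen with earlier results of these data known. The moment estimate of the CV was tested on simulated data for the control libraries (11148 genes, 200 of them at a CV of 0.5). The root mean square estimate was 0.491 for that CV and 0.0551 for a simulated CV of 0.05, where the median estimate was 0.0368, so the median CV of 3 libraries is likely too low. Alternatives changed the library size (TMM of edgeR 4.0.16, DESeq2 1.42.0), the length, the threshold, the unit and the libraries. Python 3.11.15 with numpy 2.4.6 and pandas 2.3.3 and R 4.3.3 were used. Some genes of the lists and pairs enter the counts and medians but are not reported by name here.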

Additional observations from a re-analysis of the deposited data

How the results depend on the processing

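No paired analysis was possible because no groups were compared. Leaving out each library in turn gave 19.5% to 19.98% of counts in the 10 top genes, 5.46% to 5.63% from the mitochondrial genome, 10648 to 10688 genes at 1 FPKM, 412 to 417 genes for 50% of counts, a median CV of 2.82% to 5.35%, 24 to 25 of the 25 highest genes, 33 pairs led by the first form and 10 to 11 lists with a median of 100 FPKM or more. The median CV was lowest without library b. Over genes with a mean of 10 counts or more it was 6.11%, and over those with 1000 or more 4.69%. By the dispersion that edgeR estimates for each gene the median CV was 7.79%. By summed TPM the 10 top genes held 25.2% and the mitochondrial genome 17.4%. With mitochondrial genes out of the total, the 10 top genes held 17.1%. The pair Nppa and Nppb, which has no common order, went from −0.02 on the log2 scale to 0.22 without library a and 0.01 without library b, and no other of the 35 pairs with a ratio in every library changed its direction. With the principal transcript in place of the merged exon length, an alternative chosen after seeing the data, 19 of the 25 highest genes stayed, and Ahnak, Tnnt2, Tpm1, Eif4g2, Cox4i1 and Aldoa entered. On the same counts, Ahnak went from 155 to 3713 FPKM and Eif4g2 from 132 to 1803, so their entry rests on a much shorter length. The principal transcript length moved 17 of 28 gene levels, 26 of 35 pair ratios and 22 of 26 list medians by more than 1 SD, so order between genes depends on the length used. With 3 mice, a low count has a wide error.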

Other observations

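The following genes outside the 10 most variable, but among the 40 of largest biological CV, were picked after their values were seen. Comp, cartilage oligomeric matrix protein, stood at 2.94, 6.27 and 6.15 FPKM in libraries a, b and c. Prg4, lubricin, stood at 1.69, 3.87 and 3.58, Cytl1, a cytokine of cartilage, at 2.81, 6.33 and 5.02, Angptl7 at 2.31, 5.07 and 4.96, and Dkk3, a Wnt modulator, at 3.05, 6.83 and 7.26. Each was lowest in library a. Of the 40 genes of largest biological CV, 25 were lowest in library a, 9 in library b and 6 in library c. The mesothelial markers Upk3b and Msln, which come from a marker list, stood at 2.61, 1.16 and 2.19 FPKM and at 1.71, 1.12 and 1.66, both lowest in library b.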
